A study of Mus musculus with 6 samples.

Results

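The genes described here are 10 transcription factors of the endothelium, taken by name from a table of read counts for 24421 genes. They are the SOXF factors Sox7, Sox17 and Sox18, the ETS factors Erg, Fli1, Ets1, Ets2 and Elk3, and the Krüppel-like factors Klf2 and Klf4. All 10 had reads in every library and the list names them without any threshold on a measured value. The list was, however, chosen with earlier results of these data known. The study asked how Dot1l, the methyltransferase of histone H3 lysine 79, shapes transcription in mouse blood endothelial cells (BECs) and lymphatic endothelial cells (LECs).

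SOXF factors carry an HMG box and act in endothelial specification and in arterial and lymphatic development. ETS factors bind a GGAA core that is found in the enhancers of most endothelial genes, and Erg and Fli1 are held to maintain endothelial identity. Klf2 and Klf4 are zinc finger factors that blood flow induces through the MEKK3, MEK5, ERK5 and MEF2 route, and they keep endothelium quiescent and anti-thrombotic.

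There were 6 libraries in 3 pairs, with 1 library in each group, so no group has a replicate and each difference is a difference between 2 libraries. Cont BECs and cKO BECs came from the skin of E15.5 embryos. Both carried floxed Dot1l (2f/2f), without the Tie2-Cre transgene in Cont and with it in cKO, which is driven in endothelium and also in blood cells. The cells had been depleted of CD45+, F4/80+ and Lyve1+ cells, and the RNA of 2 to 3 embryos was pooled for each library. The study's drawing of the isolation adds a gate for CD31, a pan-endothelial surface protein, which its methods text does not mention. The cultured BECs were a yolk sac line and the cultured LECs were dermal cells, both of embryonic mouse origin. OE-BECs and OE-LECs had received a lentivirus that carries dCas9-VP64, guides to the Dot1l promoter and EGFP, and their controls an empty lentivirus. The labels call these controls wild type. GFP+ cells of 2 to 3 flasks made each cultured library.

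The libraries held 8863349 reads (skin, Cont) and 11084686 (skin, cKO), 17685615 (cultured BECs, Cont) and 13933651 (OE), and 26117161 (LECs, Cont) and 31032461 (OE). Levels are given as CPM, the reads of a gene per 1000000 reads of its library. Dot1l itself stood at 86.0 CPM in Cont BECs of skin and at 85.2 CPM in the library labelled cKO, with a log2 ratio of -0.07 (-0.21 to 0.07). Its count over the whole gene did not separate these libraries, so directions in skin are those of the labels. The study also checked the knockout by RT-qPCR of Dot1l and took it as made, a measurement not analysed here. Dot1l was higher in OE-BECs (302 against 112 CPM) and in OE-LECs (217 against 95.3 CPM). Prox1, the master factor of lymphatic identity, was at 0 reads in all 4 cultured libraries, the LECs included, and at 147 and 79.7 CPM in skin. Of 8 lymphatic endothelial markers, 4 were at 0 reads in Cont LECs (Prox1, Pdpn, Ccl21a and Mmrn1) and 3 had more than 3 reads. Lyve1 was at 1027 CPM in Cont BECs of skin and 1801 CPM in the library labelled cKO, although the cells had been depleted with an antibody to it.

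Every log2 ratio below is of counts normalized by the median of ratios of its pair, changed library over control, and its interval is an exact 95% interval on the reads of both libraries. These intervals cover counting error only, since reads from PCR carry no molecular identifiers here and do not count molecules independently, and they say nothing of the spread between embryos or cultures. In bulk RNA, fewer cells of a type and less RNA per cell cannot be told apart.

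Sox18 had the lowest ratio of the 10 factors in both overexpression pairs. Sox18, a SOXF factor with a part in vascular and lymphatic development, lies on chromosome 2 (181669836 to 181671640, mm10). Its level was 81.2 CPM in cultured control BECs and 17.7 CPM in OE-BECs (1436 and 247 reads). In LECs it was 49.0 CPM with the empty virus and 15.4 CPM with overexpression (1281 and 477 reads). The OE libraries were thus the low ones in both cell types. The log2 ratio was -2.16 (-2.36 to -1.96), or 4.46-fold lower, in OE-BECs and -1.66 (-1.81 to -1.50), or 3.15-fold lower, in OE-LECs. Only 0.730% of the 9867 genes with at least 100 normalized counts had a lower ratio than Sox18 in OE-BECs, and 0.209% of 10503 such genes in OE-LECs. The skin pair differed little, at 33.3 CPM for Cont against 28.9 CPM for the cKO label (log2 ratio -0.26, -0.49 to -0.03).

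Sox17, on chromosome 1 (4490931 to 4497354), acts in arterial differentiation. It had 158 CPM in cultured control BECs and 78.9 CPM after overexpression, and 82.4 and 59.4 CPM in the LEC pair. Its log2 ratio was -0.96 (-1.06 to -0.86) in OE-BECs and -0.46 (-0.55 to -0.37) in OE-LECs, the same direction as Sox18 and smaller. The skin libraries were alike at 72.2 and 72.3 CPM, with a log2 ratio of -0.05 (-0.21 to 0.10) whose sign was positive under scaling by total counts. Exons of Sox17 share 804 bases with Gm37587 on the other strand, and whether the counting used strand is not given in the sources used here.

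Sox7 showed the opposite pattern, with its difference in skin and none beyond counting error in culture. Sox7, a SOXF factor of early endothelial and blood development on chromosome 14 (63943673 to 63950732), stood at 131 CPM in Cont BECs of skin against 74.8 CPM in the library labelled cKO (log2 ratio -0.86, -0.99 to -0.73). In culture it was low and even, at 14.98 and 14.6 CPM in the BEC pair and 14.0 and 14.5 CPM in the LEC pair. The log2 ratios were -0.00 (-0.27 to 0.27) in OE-BECs, with a sign that changed among scalings, and 0.07 (-0.13 to 0.27) in OE-LECs.

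**Figure D1:**
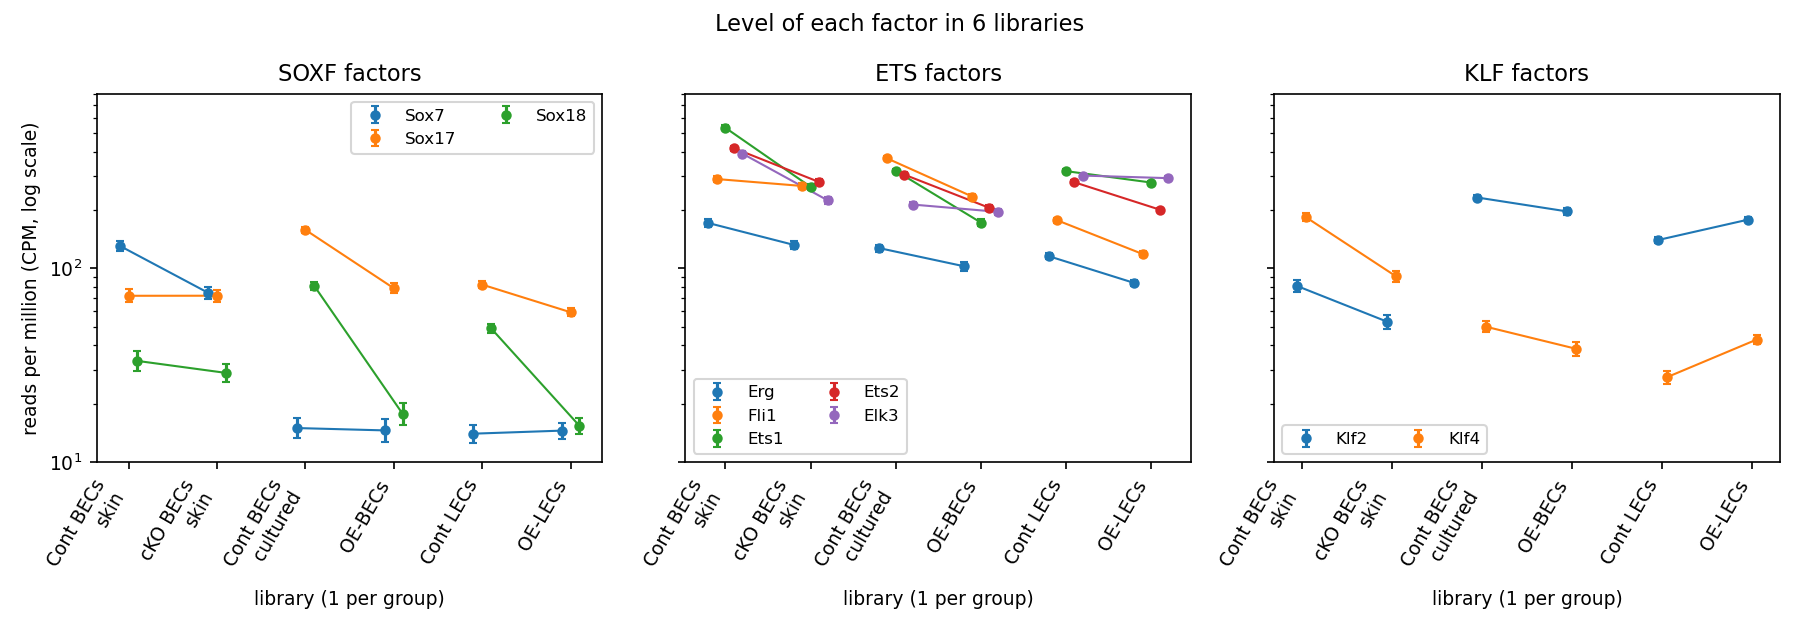
Level of the 10 factors in each library in CPM on a log axis, in panels for SOXF, ETS and KLF factors. Points are single libraries, vertical bars are exact Poisson 95% intervals of the count and lines join each control to its changed library. Sox18 drops from 81.2 to 17.7 CPM in cultured BECs and from 49.0 to 15.4 CPM in LECs, while Sox7 stays between 14.0 and 14.98 CPM in culture.

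Because these genes differ in length, their levels were compared with each other per kilobase of exon. The SOXF levels summed to 75.3 CPM per kilobase in Cont BECs of skin against 55.6 with the cKO label. Their sum was 87.8 in cultured control BECs against 31.9 in OE-BECs, and 51.8 in control LECs against 26.3 in OE-LECs. The make-up of the family differed with the source. Sox7 held 52.6% of the SOXF level in Cont BECs of skin but 5.17% in Cont BECs of culture and 8.20% in Cont LECs. Sox18 led in both cultured controls, with 57.1% in BECs and 58.4% in LECs. In the OE libraries Sox17 led instead, with 51.9% in OE-BECs and 47.2% in OE-LECs, beside 34.3% and 36.0% for Sox18.

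**Figure D2:**
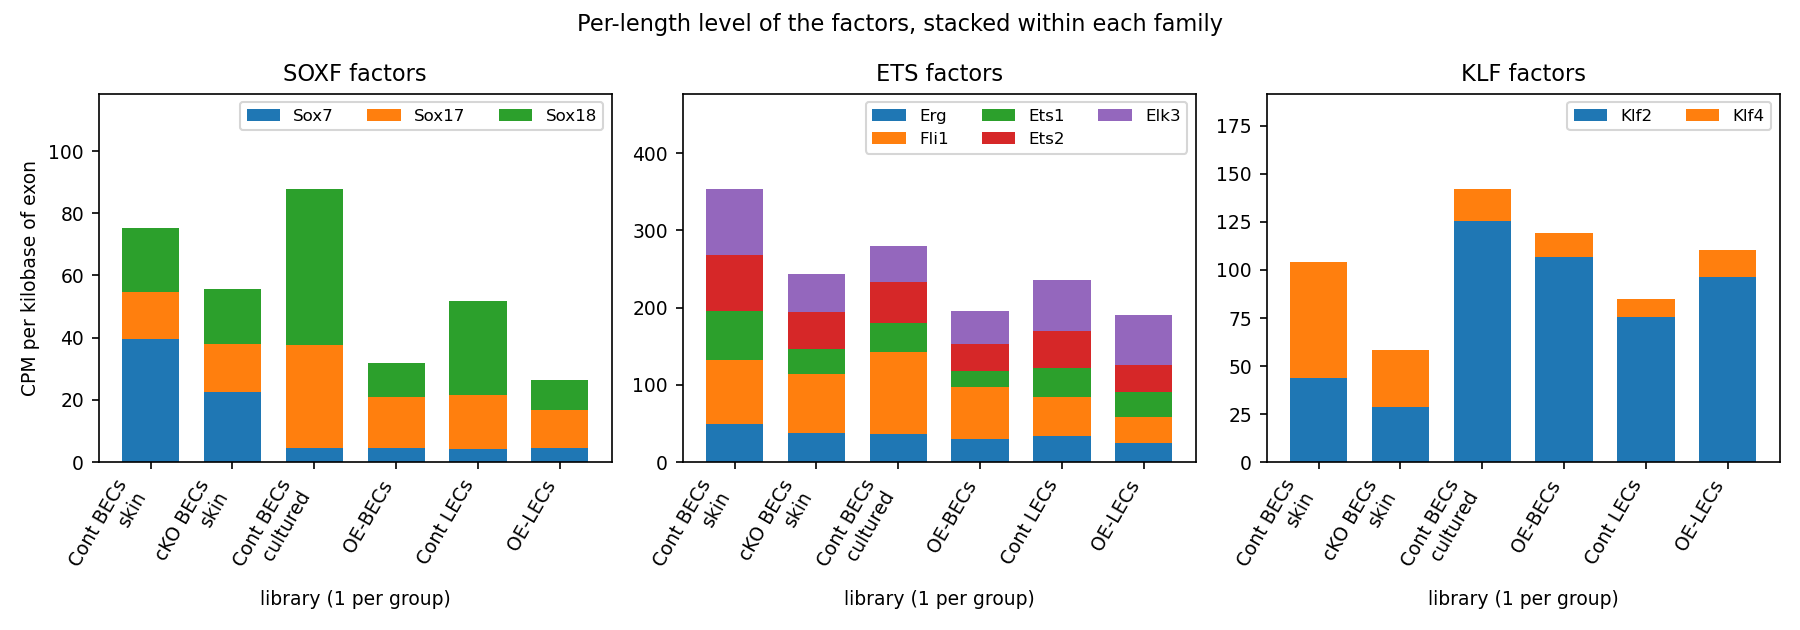
Level per length (CPM per kilobase of exon, linear axis from 0) stacked by gene within the SOXF, ETS and KLF families for the 6 libraries, with 1 bar per library and no error bars. The SOXF bar is 87.8 in Cont BECs of culture and 31.9 in OE-BECs, and the ETS bar is 280 and 196 in the same libraries.

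The ETS factors differed in 1 direction. Summed per length, and with the control first, they stood at 353 and 243 CPM per kilobase in the skin pair, at 280 and 196 in cultured BECs, and at 236 and 190 in LECs. All 5 had lower values in the changed library of every pair, and of these 15 ratios only that of Elk3 in OE-LECs had an interval that held 0. The interval of Elk3 in OE-BECs ended at -0.01. Scaling by total counts without Rn45s moved that pair by 0.04, so this tally depends on the scaling. With many reads even small ratios clear 0, as for Fli1 in skin at 1.13-fold lower. The share of all genes with such intervals was not counted, so the tally has no background.

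Ets1, which acts in angiogenic sprouting and lies on chromosome 9 (32636221 to 32757820), had the lowest ETS ratio in skin and in cultured BECs. It had 532 CPM in Cont BECs of skin against 264 CPM in the library labelled cKO, 2.10-fold lower (log2 ratio -1.07, -1.14 to -1.001). In culture it had 319 CPM in Cont BECs and 173 CPM in OE-BECs (log2 ratio -0.85, -0.92 to -0.78), and 318 CPM in Cont LECs and 278 CPM in OE-LECs (log2 ratio -0.18, -0.22 to -0.13). In CPM the cultured controls thus had nearly the same level and their OE libraries did not. Between the OE pairs the log2 ratio of Ets1 differed by -0.67 (-0.75 to -0.59, BECs minus LECs).

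Fli1, the neighbour of Ets1 on chromosome 9 (32422204 to 32542861), is a factor of early blood and endothelial development. Its levels were 289 and 266 CPM in the skin pair, 370 and 235 CPM in cultured BECs, and 177 and 119 CPM in LECs, control before changed. The log2 ratios were -0.17 (-0.25 to -0.10), -0.62 (-0.68 to -0.56) and -0.56 (-0.62 to -0.50). The difference between the OE pairs was -0.06 (-0.14 to 0.03).

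Erg, which endothelium expresses throughout life, lies on chromosome 16 (95359169 to 95586593). It had 171 and 132 CPM in the skin pair, 127 and 103 CPM in cultured BECs, and 116 and 84.1 CPM in LECs. The log2 ratios were -0.43 (-0.53 to -0.32), -0.27 (-0.37 to -0.18) and -0.44 (-0.52 to -0.36). Per length Fli1 exceeded Erg in every library, by a ratio of 1.68 and 2.002 in the skin pair, 2.88 and 2.27 in cultured BECs, and 1.52 and 1.402 in LECs.

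Ets2, a nuclear effector of the Ras and ERK pathway, lies next to Erg on chromosome 16 (95702075 to 95721051) and was lower in all 3 pairs to a similar degree. It had 417 and 279 CPM in the skin pair, 305 and 205 CPM in cultured BECs, and 278 and 201 CPM in LECs. The log2 ratios were -0.64 (-0.70 to -0.57), -0.53 (-0.60 to -0.47) and -0.45 (-0.50 to -0.40).

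Elk3, a ternary complex factor that partners serum response factor, differed in skin and hardly in culture. On chromosome 10 (93247414 to 93311135), it had 391 and 225 CPM in the skin pair, 214 and 196 CPM in cultured BECs, and 301 and 292 CPM in LECs. The log2 ratios were -0.86 (-0.93 to -0.78), -0.09 (-0.16 to -0.01) and -0.03 (-0.07 to 0.02). Elk3 shares 316 exon bases with Cdk17 on the opposite strand, which had 1767 to 5199 reads in these libraries.

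Erg and Ets2 are divergent neighbours 115 kb apart with no annotated gene between them, and Fli1 and Ets1 are divergent neighbours 93.4 kb apart with 2 genes between them, neither protein coding. Likeness of pattern was measured as the root mean square distance of log2(CPM + 0.5), centred over the 6 libraries. Of the 45 pairs of the 10 factors, Erg and Ets2 were closest at 0.110, whereas Fli1 and Ets1 were 15th at 0.627. Each distance rests on 6 single libraries and is a description without a test.

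Klf2 and Klf4 were the factors whose overexpression ratios lay on opposite sides of 0 in BECs and LECs with intervals clear of 0. Klf2, on chromosome 8 (72319033 to 72321656), had 232 CPM in Cont BECs of culture and 197 CPM in OE-BECs, a log2 ratio of -0.20 (-0.27 to -0.13). In LECs it had 140 CPM in Cont and 178 CPM in OE-LECs, a log2 ratio of 0.37 (0.31 to 0.43). The OE library was the lower one in BECs and the higher one in LECs. The difference of these ratios, BECs minus LECs, was -0.57 (-0.66 to -0.48). Klf4, on chromosome 4 (55527143 to 55532466), had 49.9 and 38.4 CPM in cultured BECs and 27.4 and 42.9 CPM in LECs. Its log2 ratios were -0.34 (-0.50 to -0.18) and 0.67 (0.53 to 0.80), with a difference of -1.01 (-1.21 to -0.80).

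In skin both were lower in the library labelled cKO. Klf2 had 81.1 CPM in Cont against 53.0 CPM with the cKO label (log2 ratio -0.67, -0.83 to -0.51), and Klf4 had 184 and 90.8 CPM (log2 ratio -1.07, -1.18 to -0.96). Per length the 2 genes stood near each other in skin, with a ratio of Klf2 to Klf4 of 0.730 in Cont and of 0.964 under the cKO label. In culture Klf2 was far above Klf4, by a ratio of 7.68 and 8.46 in the BEC pair and of 8.44 and 6.86 in the LEC pair.

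The promoters of Klf2 and Klf4 are shown because the ratios of these factors had opposite signs in the 2 overexpression pairs, and because the factors share a known route of induction. The stretches are RefSeq sequence of GRCm38.p6 (the mm10 assembly) upstream of the first annotated exon, chr8:72318812-72319032 on the plus strand for Klf2 and chr4:55532476-55532725 on the minus strand for Klf4, 5′ to 3′. Capitals mark matches to GGAA, the ETS core, on either strand and to the MEF2 motif.
Klf2: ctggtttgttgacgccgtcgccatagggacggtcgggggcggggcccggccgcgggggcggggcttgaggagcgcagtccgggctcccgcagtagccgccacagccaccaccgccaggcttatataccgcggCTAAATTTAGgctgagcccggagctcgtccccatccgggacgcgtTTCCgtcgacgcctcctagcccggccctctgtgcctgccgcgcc
Klf4: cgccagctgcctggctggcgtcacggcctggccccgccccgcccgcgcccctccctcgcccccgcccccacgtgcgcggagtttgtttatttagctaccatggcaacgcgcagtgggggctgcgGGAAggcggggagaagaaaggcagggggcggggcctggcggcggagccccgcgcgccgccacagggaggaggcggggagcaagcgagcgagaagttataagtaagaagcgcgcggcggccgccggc
The Klf2 stretch holds 1 MEF2 match, which begins 118 bases upstream of the RefSeq start, and 1 GGAA match, and the Klf4 stretch holds 1 GGAA match and no MEF2 match. Of 32544 mouse promoters of 300 bases, 3.16% hold a MEF2 match and 96.0% hold GGAA, with a median of 3 matches. In the same windows ACAAT, a SOX core, was in 30.8%, and CACCC, a KLF core, in 57.7%. The 300 bases of Klf4 hold neither, and those of Klf2 hold CACCC but not ACAAT. These full windows reach past the stretches shown, and they hold 1 GGAA match for Klf2 and 2 for Klf4. Of the other factors with a promoter sequence here, Erg also has a window with a MEF2 match, and Elk3 and Ets2 have none. All of these are matches of letters, with no measurement of binding.

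**Figure D3:**
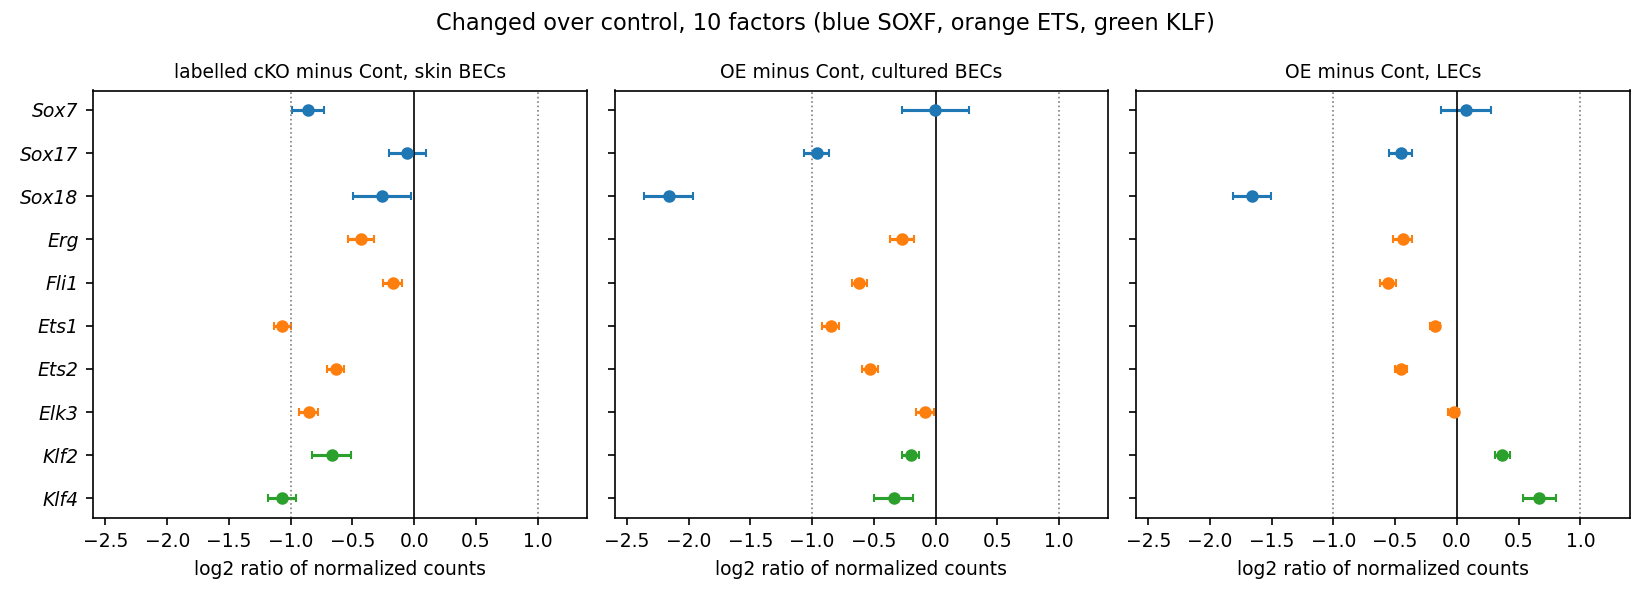
Log2 ratio of normalized counts, changed over control, for each factor in the skin, cultured BEC and LEC pairs. Points are ratios of 2 libraries, bars are exact 95% intervals for counting error and dotted lines mark 2-fold. Sox18 lies past the lower line in both OE pairs, Ets1 and Klf4 lie past it in skin, and Klf2 and Klf4 lie on opposite sides of 0 in OE-BECs and OE-LECs.

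The 10 factors were counted past a fold beside all genes. Genes entered the count with a normalized count of 5 or more (skin) or 3 or more (OE pairs) in the higher library, and passed if the higher count exceeded the lower by more than the stated fold. In skin 2 of 10 factors, Ets1 and Klf4, were more than 2-fold lower, as were 5.23% of the 15993 genes tested. So the skin count rests on 2 genes. None was more than 3-fold lower (2.41% of genes) or more than 2-fold higher (10.4%). In OE-BECs Sox18 alone was more than 2-fold lower (8.81% of 14792 genes) and more than 3-fold lower (5.27%), and none was more than 2-fold higher (11.4%). In OE-LECs Sox18 alone was more than 2-fold lower (4.26% of 13883 genes) and more than 3-fold lower (2.09%), and none was more than 2-fold higher (4.98%). Many genes past these folds had few reads. Among genes with at least 100 normalized counts, more than 2-fold lower were 2.06% in skin, 4.17% in OE-BECs and 0.847% in OE-LECs. With a fold of more than 1.5, 6 factors were lower in skin (11.7% of genes), 4 were lower in OE-BECs (16.1%) and Klf4 alone was higher in OE-LECs (8.89%). Among genes with at least 100 normalized counts, which all 10 factors exceed, these shares were 7.69%, 10.96% and 3.72%, and the shares more than 3-fold lower were 0.509% in skin, 1.55% in OE-BECs and 0.238% in OE-LECs. Sox17 in OE-BECs, at 1.95-fold lower, was just outside the 2-fold line, and Ets1 and Klf4 in skin, at 2.10-fold each, just inside it.

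The smaller differences lay mostly in the same direction. All 10 factors were lower in the library labelled cKO, with a median log2 ratio of -0.65, where the median of 10212 genes with at least 100 normalized counts was -0.04. All 10 were lower in OE-BECs too (median -0.44, all genes -0.02), with 9 intervals below 0 in each of these pairs. In OE-LECs 7 were lower and 3 higher (median -0.31, all genes 0.01), with 6 intervals below 0 and 2 above. The share of all genes with intervals clear of 0 was not counted, so these counts of intervals have no background. The lower quartile of genes with at least 100 normalized counts was -0.27 in skin, -0.29 in OE-BECs and -0.12 in OE-LECs. The intervals of Sox18 in skin and Elk3 in OE-BECs ended at -0.03 and -0.01. Scalings moved those pairs by up to 0.06 and 0.04, so whether these intervals clear 0 depends on the scaling. The cKO and OE pairs have no library in common.

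Markers of blood endothelium had ratios of similar size in the same pairs. Most of these markers are themselves among the endothelial genes with known control by ETS or SOXF factors, so they are not a reference independent of the factors. Of 12 such markers, 10 were lower in the library labelled cKO (median -0.66, from -0.998 for Kdr to 0.21 for Egfl7), 11 in OE-BECs (median -0.41, from -2.14 for Flt1 to 0.07 for Eng) and 10 in OE-LECs (median -0.24, from -1.38 for Cldn5 to 0.20 for Eng). Set against these marker medians, the median of the 10 factors was 0.01 in skin, -0.02 in OE-BECs and -0.07 in OE-LECs on the log2 scale, with 5 factors higher and 5 lower in each. Relative to the markers, Sox17 was higher in the library labelled cKO by 0.60 (0.45 to 0.76) and Fli1 by 0.48 (0.41 to 0.56). Ets1 and Klf4 were at -0.41 each (-0.48 to -0.34 and -0.53 to -0.30). Sox18 was at -1.74 (-1.94 to -1.55) in OE-BECs and -1.42 (-1.57 to -1.26) in OE-LECs. Klf2 and Klf4 were at 0.61 (0.55 to 0.67) and 0.91 (0.78 to 1.04) in OE-LECs. This step subtracts the same value from every factor of a pair, so it cannot change their order, and its intervals leave out the spread of the markers, among which Flt1 in OE-BECs was about as low as Sox18 (-2.14 and -2.16).

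RNA of markers of other cells was also present in the skin libraries, for which a CD31 gate is given in part of the sources. Summed CPM of 12 macrophage markers was 4057 in Cont against 6335 with the cKO label, with 11 of 12 higher, and that of 12 keratinocyte markers 178 and 272, with 8 of 12 higher. Blood endothelial markers summed to 6896 and 4470 CPM, 8 fibroblast markers to 2537 and 1870 CPM (7 lower) and 8 pericyte markers to 858 and 677 CPM (8 lower). The 8 lymphatic endothelial markers summed to 3646 CPM in Cont and 3798 CPM with the cKO label, with Ccl21a at 0 in both, 5 of the 7 tested lower and Pdpn more than 2-fold higher. The macrophage, keratinocyte, blood endothelial, fibroblast and pericyte lists had reads for every marker in both skin libraries. Immediate early genes, which stimulated cells induce without new protein synthesis, summed to 3836 and 2713 CPM, with 15 of 18 tested lower. The part of these in the ratios of the 10 factors in skin was not tested. In the cultured libraries the same macrophage markers summed to 35.0 to 94.8 CPM, with C1qa, C1qb and C1qc at 0, and keratinocyte, fibroblast and pericyte markers to at most 20.4 CPM. Rn45s, the ribosomal RNA precursor, took 5.91% of the reads in Cont BECs of culture and 10.9% in OE-BECs, and its part in that pair was likewise not tested beyond the scaling without it.

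Among the controls, skin and culture differed for most factors. In CPM, Sox7 was 8.73-fold lower in cultured Cont BECs than in Cont BECs of skin and Klf4 3.68-fold lower, while Klf2 was 2.86-fold, Sox18 2.44-fold and Sox17 2.19-fold higher. The others lay within 1.83-fold. In Cont LECs, against Cont BECs of skin, Sox7 was 9.33-fold and Klf4 6.71-fold lower. Klf2 was 1.73-fold, Sox18 1.47-fold and Sox17 1.14-fold higher there. Source, embryonic stage, culture, sort, the floxed Dot1l genotype and the empty virus, and for LECs the cell type, differ together here and cannot be told apart. Cont LECs differed from Cont BECs of culture most in Fli1 (2.09-fold lower), Sox17 (1.92-fold lower) and Klf4 (1.82-fold lower). These cultures differ in tissue of origin (dermal and yolk sac) as well as in cell type, with 1 library each, so the 2 cannot be told apart. In CPM, Ets1 was alike in the cultured controls (log2 ratio -0.01, -0.05 to 0.04), and so was Sox7 within counting error (-0.10, -0.33 to 0.14). With size factors from all 6 libraries, these log2 ratios were -0.13 for Ets1, outside that interval, and -0.22 for Sox7.

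The order of levels per length gave a compact view of each library. In Cont BECs of skin Elk3 (86.0 CPM per kilobase) and Fli1 (83.0) led, with overlapping intervals, and Sox17 (15.1) was last. In the library labelled cKO Fli1 led at 76.4, and Elk3 (49.4) and Ets2 (48.3) followed with overlapping intervals. Klf2 led all 4 cultured libraries, at 126 and 107 in the BEC pair and 75.8 and 96.6 in the LEC pair, and Sox7 was last in each, between 4.25 and 4.54. Sox18 stood 4th in the control and 9th in the OE library of BECs, and 7th and 9th in those of LECs. Its interval overlapped those of Ets2 and Elk3 in the BEC control, and that of Klf4 in OE-BECs.

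Genes with the pattern most like each factor were sought among those with a mean of at least 10 CPM. The 3 nearest are given for each. For Sox18 these were Peg13 (distance 0.273), Csgalnact1 (0.275) and Dll4 (0.301), the last a Notch ligand of arterial and tip cells. Sox17 was nearest to Acsf2 (0.120), Jak3 (0.130) and Creb3l2 (0.131), and Sox7 to Pparg (0.158), Ogfrl1 (0.165) and Zfp36 (0.179). Among ETS factors, Erg was nearest to 5031425E22Rik, Pkig and Hipk3 (0.0485 to 0.0918), and Fli1 to Sash1, Chd3 and Gimap1 (0.130 to 0.157). Ets1 was nearest to Prrg1, Lbp and Ppp1r2 (0.10 to 0.127), Ets2 to Cnot6l, Erg and Zdhhc17 (0.103 to 0.111), and Elk3 to Cd109, Tprgl and Ctdsp2 (0.0739 to 0.0851). Klf2 was nearest to Pitpnm2, Ptpn14 and Mov10 (0.135 to 0.154), and Klf4 to Arid5a, Sema6d and Fbxl7 (0.145 to 0.218). Of the other 9 factors, Sox17 lay nearest to Sox18, at 0.5003.

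Of 16 endothelial genes with known control by ETS or SOXF factors, 14 were lower and 2 higher in the library labelled cKO, none past 2-fold, with a median log2 ratio of -0.45. In OE-BECs 14 were lower, 6 of them past 2-fold (Cldn5, Tie1, Tek, Flt1, Vwf and Dll4), with a median of -0.60, and in OE-LECs 12 were lower, 4 past 2-fold (Cldn5, Flt1, Vwf and Dll4), with a median of -0.17. Of all genes with at least 100 normalized counts, 4.17% were more than 2-fold lower in OE-BECs and 0.847% in OE-LECs (2.06% in skin). More than 2-fold higher were 3.54% of such genes for the skin pair, 1.82% for OE-BECs and 1.504% for OE-LECs. These shares are a background only for listed genes with at least 100 normalized counts. The list counts used the lower minimums of 5 (skin) or 3 (OE pairs). At those minimums, 10.4% of genes were more than 2-fold higher for the skin pair, 11.4% for OE-BECs and 4.98% for OE-LECs. More than 2-fold lower were 5.23%, 8.81% and 4.26%, listed by pair as before. Cldn5, the tight junction protein of vessels, had 720 and 212 CPM in cultured BECs (log2 ratio -1.73, -1.79 to -1.67) and 484 and 184 CPM in LECs (-1.38, -1.42 to -1.33). Dll4 had 154 and 45.6 CPM in BECs (-1.71, -1.84 to -1.59) and 65.8 and 30.4 CPM in LECs (-1.10, -1.21 to -0.98). Vwf, the carrier of coagulation factor VIII, had log2 ratios of -2.18 (-2.31 to -2.06) and -1.89 (-2.10 to -1.69). Most of the blood endothelial markers are also in this list of 16 genes, so the 2 lists are largely the same set and not independent.

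Of 18 other endothelial transcription factors, 13 were lower in the library labelled cKO (median -0.53), and Foxc1 (-1.48) and Nr2f2 (-1.04), the venous factor COUP-TFII, were past 2-fold. In OE-BECs 12 of 16 tested were lower (median -0.35), with Lmo2 (-1.64), Epas1 (-1.22) and Mef2c (-1.08) past 2-fold at over 100 normalized counts. In OE-LECs 10 of 15 tested were lower (median -0.11), and the only gene past 2-fold, Hey1, had 8 and 2 reads.

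**Figure D4:**
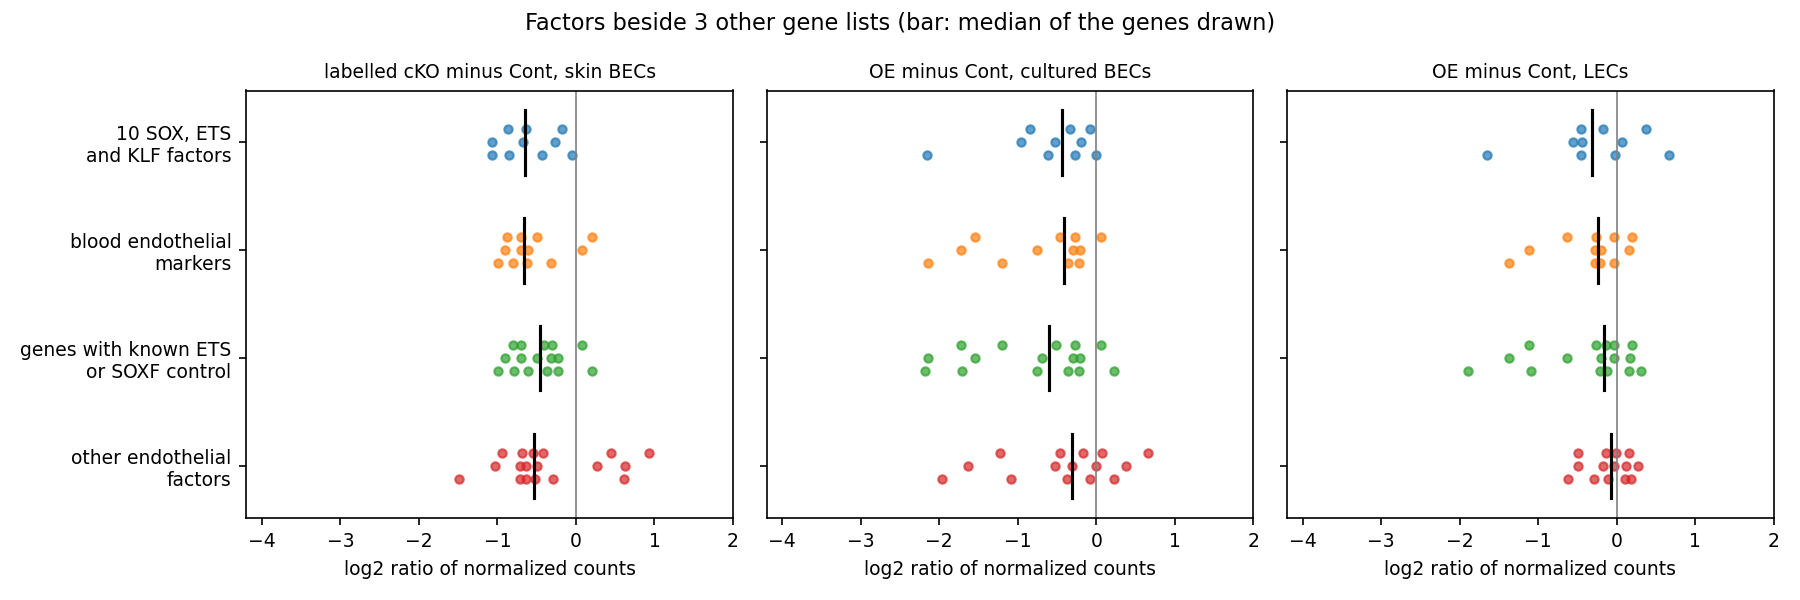
Log2 ratio of normalized counts in each pair for the 10 factors, 12 blood endothelial markers, 16 genes with known ETS or SOXF control and 18 other endothelial transcription factors. Points are genes above the count minimum with more than 3 reads in the lower library, black bars are medians of the points and vertical position within a row has no meaning. Most of the 12 markers are also among the 16 genes. In skin the factors (-0.65) and the markers (-0.66) have nearly the same median, and in both OE pairs the Sox18 point lies left of the other 9 factors.

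Genes downstream and upstream of Klf2 and Klf4 were read from 3 lists. Of 6 genes that they induce, 5 were lower in the library labelled cKO, with Palmd (log2 ratio -1.72) and Slco2a1 (-1.07) past 2-fold and Nos3, the endothelial nitric oxide synthase, at -0.95 (-1.12 to -0.78). In OE-BECs Nos3 was at 0.05, S1pr1 at -0.03, thrombomodulin (Thbd) at -0.36 and Cyp1b1 at 0.58. In OE-LECs they were at 0.15, -0.10, 0.45 and 0.52, so Thbd had opposite signs in the pairs and Cyp1b1 was higher in both. Among 6 genes that they repress, Vcam1 (1.497), Sele (1.34) and, with 6 and 31 reads, Edn1 (2.75) were more than 2-fold higher in OE-BECs. Palmd had 37 reads in cultured control BECs and 0 in OE-BECs, and 40 and 14 in LECs, so it was scarce in culture. In OE-LECs Vcam1 was at 0.88 and Sele at 0.89, under 2-fold, and Il6 (-1.13) was past it. In skin Edn1 was higher (2.28) and Sele (-3.40) and Il6 (-2.20) were lower. Of 12 genes of the MEKK3, MEK5, ERK5 and MEF2 route, Mef2c in OE-BECs (-1.08) was past 2-fold and none was in the other pairs.

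Relatives of the 10 factors gave few calls with many reads. Of 21 other ETS genes, Etv4 was higher (1.06, 369 and 590 reads) and Etv1 lower (-1.57, 120 and 31 reads) in OE-BECs. Among 15 other KLF genes, Klf9 (-1.28) and Klf11 (-1.05) were lower in the library labelled cKO and Klf5 was higher in OE-BECs (1.92, 28 and 81 reads) and OE-LECs (1.06, 65 and 159 reads). Among 17 other SOX genes, Sox11 was lower in the library labelled cKO (-1.04), with 0 reads in culture, and Sox6 was lower in OE-BECs (-1.25, 62 and 20 reads).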

How the data were processed

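RNA-seq of 6 libraries was analysed. Libraries were made by the authors with ScriptSeq v2. After adapter trimming (skewer v0.2.2), the authors aligned to mm10 by STAR v2.7.9a, counted by VERSE v0.1.5 with its -S option and deposited raw read counts per gene symbol (8863349 to 31032461 per library). The counting annotation, and whether that option concerns strand, are not given in the sources used here. All 6 count columns were used, and 0 were left out.

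Counts were normalized by the median of ratios of DESeq2 1.42.0 (R 4.3.3) on each pair. Log2 ratios carry exact Clopper-Pearson 95% intervals and CPM carry exact Poisson intervals. A ratio with 3 reads or fewer in a library was not computed, and medians of other lists used normalized counts plus 1. The 2-fold rule and the study's 3-fold rule used a higher normalized count of at least 5 (skin) or 3 (culture). With 1 library per group, no pair could be tested against replicates. An additive fit of cell type and overexpression over the cultured libraries was not run. Differences between the OE pairs have intervals from the reads of 4 libraries (normal approximation). Exon lengths and positions were taken from GENCODE M21 and promoters from RefSeq, which gave 5 of the 10 genes.

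The members and lists were chosen with earlier results of these data known, and the values relative to markers were added after seeing the data. Named genes are the 10 factors, the 3 genes nearest in pattern to each and, of other lists, up to 4 per comparison past 2-fold with at least 100 normalized counts, or any of a list of 8 or fewer. Of the remaining names, Dot1l, Prox1, Lyve1, Rn45s, Egfl7, Eng, Kdr, Gm37587 and Cdk17 describe the libraries, markers or overlaps, and Klf5, Sox6, Etv1, Hey1 and others were chosen after their values were seen. The values of a further gene of these lists are not reported here. Steps were tested on simulated data. Alternatives were the TMM factors of edgeR 4.0.16, size factors from all 6 libraries, total counts with and without Rn45s, a pseudocount of 1, minimums of 20 and none, and a fold of 1.5. Python 3.11.15, numpy 2.4.6, scipy 1.17.1, pandas 2.3.3 and matplotlib 3.10.9 were used.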

Additional observations from a re-analysis of the deposited data

Results flagged for a closer look

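Klf2 had a lower value in OE-BECs and a higher value in OE-LECs than in their controls, and the difference of the log2 ratios, BECs minus LECs, was -0.57 (-0.66 to -0.48). Klf4 showed the same opposition with a difference of -1.01 (-1.21 to -0.80). The difference was not tested against replicates, since each group has 1 library, and the intervals cover counting error only.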

How the results depend on the processing

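Replicates could not be paired, since each group has 1 library and the labels give no replicate numbers to pair by. No library could be left out of a pair. A fit of overexpression with cell type as a term over the 4 cultured libraries was not run. The ratios of the 10 factors and the differences between the OE pairs were recomputed from the same counts under the other scalings and, for the ratios, the pseudocount. This gave 150 values of the ratios and 40 of the differences. All stayed within the counting intervals, although the sign turned for Sox17 in skin and Sox7 in OE-BECs, whose intervals hold 0. The 15 recomputed medians moved by at most 0.06. The differences under total counts without Rn45s were added after seeing the data. Of 48 recomputed counts of factors past a fold, 44 stayed within 1.5 times. With a fold of more than 1.5, 6 factors were lower in the library labelled cKO, 4 were lower in OE-BECs and 1 was higher in OE-LECs, beside 11.7%, 16.1% and 8.89% of all genes. With scaling by total counts, 2 were more than 2-fold lower in OE-BECs, where Sox17 joined Sox18. The scalings moved the ratios by at most 0.06 on the log2 scale. Depth limited Sox7 most in culture, where 203 to 451 reads per library gave the widest intervals of the 10 factors.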
